A study of Mus musculus with 13 samples.

Results

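The insulin-like growth factor (IGF) system was followed in mouse embryonic fibroblasts (MEFs) through 10 of the 57010 genes counted. These were the ligands Igf1 and Igf2, the receptors Igf1r and Igf2r, and the binding proteins Igfbp2, Igfbp3, Igfbp4, Igfbp5, Igfbp6 and Igfbp7. The rule that picks them uses the gene symbol and no measured value, although the gene family was proposed with earlier results of these data known, and all 10 were among the 15034 genes that passed the filter on low counts.

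RNA was sequenced from wild-type MEFs, primary cells grown out of mid-gestation mouse embryos freed of viscera, in 4 groups of 3 biological replicates labelled mouse 4, mouse 5 and mouse 6. Control MEFs were non-senescent and untreated. Senescent MEFs had been exposed to etoposide, a topoisomerase poison that leaves DNA strand breaks, at 2 μM for 24 h and then kept in culture for 5 days. The remaining groups were senescent MEFs given Fucoidan-FV, the fucoidan of the brown seaweed Fucus vesiculosus (a fucose-rich, sulfated polysaccharide), and harvested for RNA 12 h later, one at 100 and one at 300 μg/mL. All groups shared the wild-type genotype, and no non-senescent culture given Fucoidan-FV was analysed here. Senescence and exposure to etoposide cannot be told apart in this design.

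IGF1 and IGF2 are secreted growth factors that act through IGF1R, a receptor tyrosine kinase that signals by way of IRS adaptors, PI3 kinase and AKT. IGF2R, the cation-independent mannose 6-phosphate receptor, does not signal growth but takes IGF2 up for lysosomal breakdown and sorts lysosomal enzymes. IGF-binding proteins hold the ligands outside the cell, where they can withhold them from the receptor or prolong their stay, and several of them are known among the proteins that senescent cells secrete.

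The 13 libraries held between 22782536 and 31278750 counts each. All 10 fibroblast markers passed the filter. Over the 12 samples they summed to 13048 to 17569 CPM, counts scaled to the size of the library. Single markers differed between groups within this sum. Dcn was at 0.726 to 1.57 CPM in control, 12.7 to 22.9 in senescent MEFs, 37.5 to 168 at 100 and 40.3 to 133 at 300 μg/mL. For the same groups Col3a1 was at 381 to 736, 838 to 919, 1994 to 2777 and 1416 to 2651 CPM. Fbn1 was lower in senescent MEFs (795 to 1713 CPM) than in control (2144 to 3253 CPM). Epithelial markers summed to at most 2.24 CPM. Endothelial markers summed to 4.28 to 14.6 CPM, with Cldn5 at 0. Among them, Tek was at most at 0.850 CPM in control and 0.863 in senescent MEFs. At 100 μg/mL Tek was at 4.77 to 7.96 CPM and at 300 μg/mL at 3.69 to 5.87. Egfl7 was at 1.14 to 6.60 CPM over all samples. Skeletal muscle markers summed to 68.7 to 360 CPM, with Myf5 at 0. Most of this was Des and Acta1. Des was at 21.9 to 74.3 CPM in control, 72.5 to 267 in senescent MEFs and 37.0 to 96.8 over both doses. Acta1 was at 81.7 to 121, 74.1 to 92.7 and 13.6 to 51.3 CPM in the same order. Adipocyte markers summed to 11.4 to 26.4 CPM, with Adipoq under 1 CPM. In that order Pparg was at 13.6 to 14.4, 5.82 to 11.7 and 3.48 to 10.5 CPM. Lpl was at 5.20 to 8.71, 0.883 to 5.39 and 6.30 to 15.4 CPM. The macrophage list summed to 0.470 to 12.6 CPM, with Aif1, Mrc1, Fcgr1 and C1qa under 1 CPM in every sample. Csf1r reached the highest level of this list in each group. It was at most at 2.68 CPM in control, 8.88 in senescent MEFs, 5.09 at 100 and 3.13 at 300 μg/mL, with ranges that overlapped. Ptprc, Adgre1, Cd68, Tyrobp and Cx3cr1 were at or under 0.552 CPM in control and passed 1 CPM in some senescent or treated samples. Chondrocyte markers (6 genes, 3 tested, Snorc at 0) summed to 618 to 871 CPM in control, 222 to 353 in senescent, 116 to 184 at 100 μg/mL and 158 to 220 at 300 μg/mL. Almost all of this sum was Col2a1 (616 to 853 CPM in control, 218 to 348 in senescent, 112 to 175 and 151 to 217 at the doses). Sox9 was at 0.846 to 5.78 CPM in control and 1.55 to 3.77 in senescent MEFs. At 100 μg/mL Sox9 was at 3.81 to 8.37 CPM and at 300 μg/mL at 1.78 to 6.83, the latter overlapping the control and senescent ranges. Neural and glial markers (6 genes, 4 tested, Sox2 under 1 CPM) summed to 583 to 1097 CPM in control, 642 to 1080 in senescent, 203 to 215 at 100 μg/mL and 200 to 228 at 300 μg/mL, most of it Nes (536 to 1065 in control, 607 to 1033 in senescent, 137 to 161 and 141 to 163 at the doses). The part of these cell types in the differences given below was not tested, and fewer cells of a type cannot be told apart from less RNA per cell. Cdkn1a, which encodes the cell cycle inhibitor p21, was at 373 to 527 CPM in control and 1520 to 1866 CPM in senescent MEFs.

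Libraries also differed in the levels of genes whose exonic sequence lies mostly in only 1 annotated transcript, which need not be the only transcript of the gene. Over 623 genes with more than 95% of their sequence in only one transcript, the median deviation from the mean of the libraries ran from -1.49 on the log2 scale in control mouse 6 to 1.09 in the 100 μg/mL culture of mouse 5. It ran from -0.19 to 0.22 over 6752 genes with less than 50% of such sequence. Among the IGF genes this share was 100% for Igfbp6, 93.3% for Igf2r and 83.4% for Igf1r, against 1.82% to 54.6% for the other 7. Values for these 3 genes are therefore also given with per-library offsets. The offsets take out the trend with single-transcript share and then a trend with gene length, so a shift under them cannot be put to either alone. Control mouse 5 had been sequenced as a pair of libraries, 5(1) and 5(2), whose counts were added. They differed for several IGF genes, with 0 and 79 counts for Igf1, 4009 and 1087 for Igf2 and 774 and 5319 for Igf2r.

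Promoter sequences are shown for the 4 genes whose levels differed between groups past the threshold used below, as the DNA next to the transcription start that a reader would inspect first. They are RefSeq promoters of the GRCm38.p6 table, 250 bases before to 50 bases after the start, placed on GRCm39 by their single exact match. A RefSeq promoter was found for each of the 10 IGF genes, with 14 promoters in all. Capitals mark matches, on either strand, to the TATA box TATAAA, the CCAAT box, the GC box GGGCGG, the AP-1 element TGACTCA and the forkhead element TGTTTAC. The Igf1 promoter lies at chr10:87696723-87697022 on the plus strand, the first Igfbp2 promoter at chr1:72863389-72863688 on the plus strand, the Igfbp3 promoter at chr11:7163874-7164173 on the minus strand and the Igfbp5 promoter at chr1:72913975-72914274 on the minus strand. The Igf1 start in RefSeq lies 3331 bases inside the gene as GENCODE annotates it.
Igf1: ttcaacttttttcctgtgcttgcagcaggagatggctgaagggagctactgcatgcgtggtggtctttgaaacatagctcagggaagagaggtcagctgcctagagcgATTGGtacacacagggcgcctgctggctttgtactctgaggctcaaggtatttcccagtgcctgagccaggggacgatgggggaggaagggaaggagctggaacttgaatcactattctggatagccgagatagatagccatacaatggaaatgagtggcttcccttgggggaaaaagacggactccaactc
Igfbp2: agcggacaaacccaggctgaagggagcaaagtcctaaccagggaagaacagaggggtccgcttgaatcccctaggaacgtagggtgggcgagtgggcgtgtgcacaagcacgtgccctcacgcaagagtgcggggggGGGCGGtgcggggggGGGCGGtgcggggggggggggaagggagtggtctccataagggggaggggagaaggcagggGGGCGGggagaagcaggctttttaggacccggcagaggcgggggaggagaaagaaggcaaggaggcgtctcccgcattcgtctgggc
Igfbp3: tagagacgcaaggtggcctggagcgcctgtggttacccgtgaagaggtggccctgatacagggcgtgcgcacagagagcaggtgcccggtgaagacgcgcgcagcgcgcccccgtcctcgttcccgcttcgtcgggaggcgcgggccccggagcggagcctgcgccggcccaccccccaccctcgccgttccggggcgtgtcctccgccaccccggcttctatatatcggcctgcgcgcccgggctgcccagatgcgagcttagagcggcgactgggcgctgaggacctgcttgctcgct
Igfbp5: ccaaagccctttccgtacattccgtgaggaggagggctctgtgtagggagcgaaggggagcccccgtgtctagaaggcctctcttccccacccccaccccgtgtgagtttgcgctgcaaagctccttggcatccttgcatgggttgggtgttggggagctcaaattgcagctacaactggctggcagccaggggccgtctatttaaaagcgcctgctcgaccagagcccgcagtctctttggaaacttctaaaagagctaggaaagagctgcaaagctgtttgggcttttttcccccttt

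Igf1 held 1 CCAAT match, read on the opposite strand, and the Igfbp2 window shown held 3 GGGCGG matches. The second Igfbp2 promoter, at chr1:72864296-72864595, held 1 match to the AP-1 element and none to the other motifs. The Igfbp3 and Igfbp5 windows held none of the 5 motifs. Over 32851 RefSeq promoters of this length, CCAAT was found in 37.4%, GGGCGG in 35.7%, TATAAA in 13.6%, TGACTCA in 5.2% and TGTTTAC in 3.65%. GC content was 52.3% for Igf1, 67% for Igfbp2, 71.7% for Igfbp3 and 56.3% for Igfbp5, against a median of 52.7% over all promoters. A match in these letters is a description and not a binding site, and a window without one says nothing of the factor.

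Levels were first compared between genes in TPM, the share of transcripts after division by length. In control MEFs, Igfbp7, a secreted protein that binds IGFs only weakly, had the highest mean at 994 ± 91.8 TPM (SD, n = 3). Igfbp4 followed at 567 ± 126 and Igfbp2 at 121 ± 45.0 TPM, and the ranges of these 3 did not overlap one another. The receptors were at 33.3 ± 10.6 TPM for Igf1r and 17.2 ± 7.09 for Igf2r, and the ligands at 54.1 ± 18.7 for Igf2 and 2.74 ± 3.10 for Igf1. Igfbp3 was lowest at 0.965 ± 0.276 TPM. From Igf2 down, every gene overlapped the next one in the order.

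The order changed in senescent MEFs, where Igfbp2 stood second at 846 ± 323 TPM, overlapping Igfbp4 at 605 ± 52.9, below Igfbp7 at 1404 ± 236. Igfbp3 reached 14.0 ± 3.31 TPM and Igf1, the lowest of the 10 there, was at 5.26 ± 1.85 TPM, with ranges that did not overlap. At 100 μg/mL Fucoidan-FV, Igfbp7 (1152 ± 238 TPM) and Igfbp2 (996 ± 222) overlapped, and Igfbp5, ranked 4, was at 80.1 ± 42.2 TPM. At 300 μg/mL the first 3 were Igfbp7 (1188 ± 98.7), Igfbp2 (1024 ± 360) and Igfbp4 (594 ± 159), each overlapping the next. Igf1 was at 30.9 ± 9.61 TPM at 100 μg/mL and 40.6 ± 10.4 at 300 μg/mL, and Igfbp6 was the lowest of the 10 at both doses.

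Differences between groups were tested gene by gene over all 15034 genes, on CPM scaled for library composition. A differentially expressed gene (DEG) had an adjusted p below 0.05 and an absolute log2 fold change above 1 in edgeR's quasi-likelihood test. In senescent against control MEFs, 3 of the 10 IGF genes were DEGs, all higher (Igf1, Igfbp2 and Igfbp3), where 8.42% of all genes tested were DEGs, 4.47% higher and 3.95% lower. Control and senescent CPM ranges were apart for 4 of the 10 (these 3 and Igfbp7), against 27.1% of all genes. The median log2 fold change was 0.30 over the 10 genes and 0.07 over all genes.

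**Figure D1:**
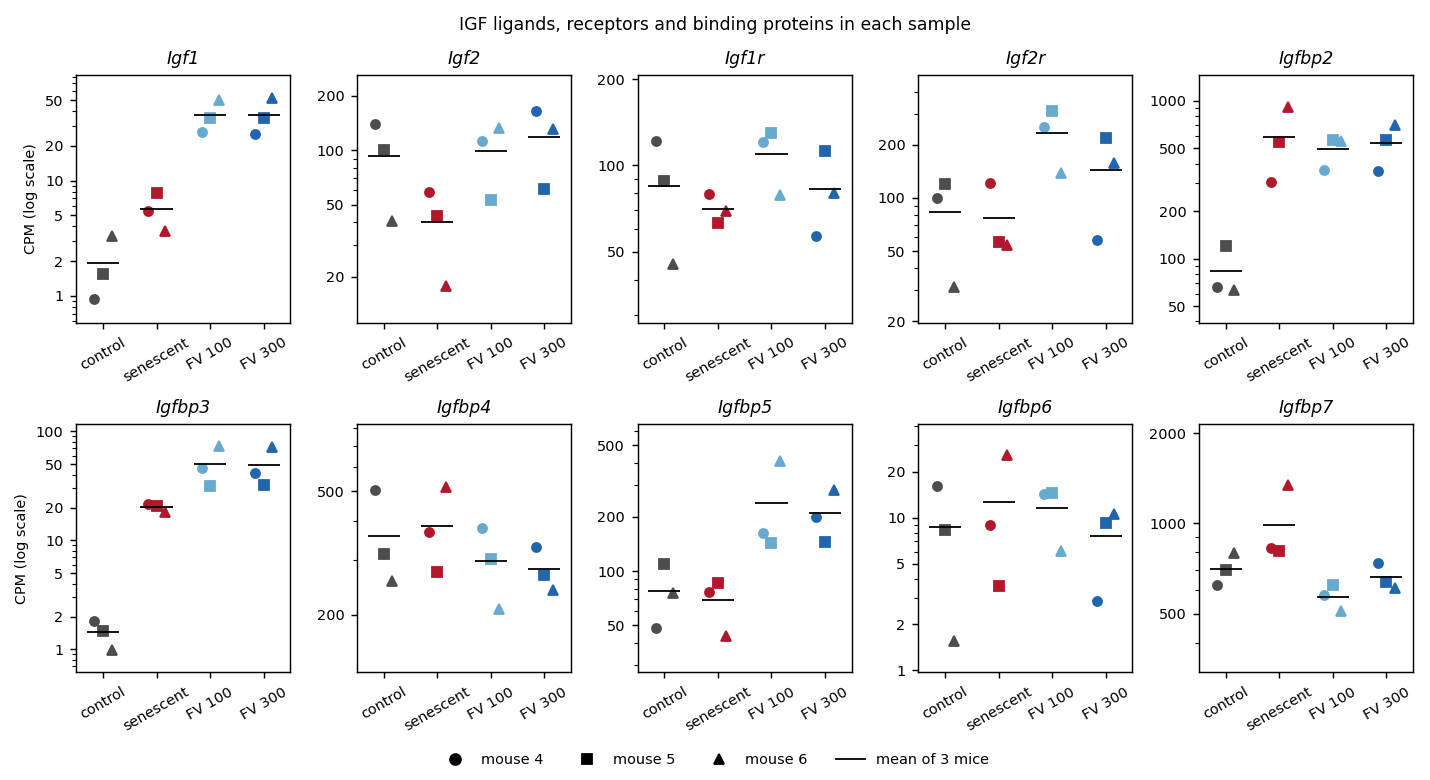
CPM of the 10 IGF genes in each sample on log axes that differ between panels, with points shaped by mouse, colours for the 4 groups and a line at the mean of 3 mice. Igf1 lies between 25.5 and 52.2 CPM in the 6 Fucoidan-FV samples and at most at 7.80 CPM in the 3 senescent ones, and Igfbp3 lies at or under 1.83 CPM in control and at or above 18.4 CPM in every other sample.

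The ligand Igf1 lies on GRCm39 chromosome 10, bases 87693642 to 87772904, on the plus strand. In mice 4, 5 and 6 it was at 0.935, 1.55 and 3.29 CPM in control and at 5.43, 7.80 and 3.67 CPM in senescent MEFs. Every senescent sample lay above every control sample, though senescent mouse 6 exceeded control mouse 6 by little. The senescent level was 2.95-fold higher (95% interval 1.49 to 5.83), a log2 fold change of 1.56 ± 0.46 (SE) with an adjusted p of 0.0414. These were low counts, 22 to 79 per control sample and 108 to 181 per senescent sample, and in TPM the control (0.89 to 6.31) and senescent (3.39 to 7.09) ranges overlapped. The call was lost without control mouse 4, control mouse 5, senescent mouse 4 or senescent mouse 5 (adjusted p between 0.0894 and 0.140), with library 5(1) alone or 5(2) alone for control mouse 5 (0.136 and 0.148), with these libraries as separate samples (0.214) and with only these 2 groups in the fit (0.222), at log2 fold changes of 1.16 to 2.03.

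With Fucoidan-FV, Igf1 was at 26.7, 35.1 and 49.7 CPM in mice 4, 5 and 6 at 100 μg/mL and at 25.5, 34.9 and 52.2 CPM at 300 μg/mL. Every treated sample lay above every senescent untreated sample, and mouse 6, the lowest of the untreated senescent cultures, was the highest of the treated ones at both doses. Igf1 rose 6.60-fold at 100 μg/mL (95% interval 3.33 to 13.1, log2 fold change 2.72 ± 0.46, adjusted p = 0.00792) and 6.66-fold at 300 μg/mL (3.36 to 13.2, 2.74 ± 0.46, adjusted p = 0.0102). The log2 fold change stayed between 2.42 and 3.14 under every alternative run. Control samples enter these comparisons only through the shared normalisation and estimate of spread, yet the call was lost with library 5(1) alone for control mouse 5 (adjusted p = 0.0821 at 100 and 0.121 at 300 μg/mL) or with both libraries as separate samples (0.0919 and 0.131), and at 300 μg/mL without the treated culture of mouse 6 (0.0604). Macrophages are a known source of IGF1. Their marker sum was 0.470 to 3.95 CPM in control and 2.78 to 12.6 CPM in senescent untreated MEFs. It was 3.60 to 11.7 CPM at 100 μg/mL and 3.76 to 7.61 CPM at 300 μg/mL. The part of macrophages in the Igf1 differences, that of senescent against control MEFs included, was not tested.

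Igf2, a fetal growth factor expressed from the paternal allele, lies on chromosome 7, bases 142204503 to 142220694, on the minus strand. Its levels in mice 4, 5 and 6 were 139.7, 100.0 and 40.6 CPM in control, 58.9, 43.2 and 17.8 in senescent MEFs, 112, 53.4 and 133 at 100 μg/mL and 164, 60.99 and 131 at 300 μg/mL. Each senescent culture was below the control culture of the same mouse and below both treated cultures of that mouse, while the control and senescent ranges overlapped. The log2 fold change was -1.23 ± 0.52 in senescent against control (adjusted p = 0.156), 1.32 ± 0.52 (adjusted p = 0.176) with the lower dose and 1.57 ± 0.52 (adjusted p = 0.154) with the higher dose, none of them a DEG. The 300 μg/mL difference became a DEG with DESeq2, at 1.58 and an adjusted p of 0.0413. With no filter beyond 1 count all 3 differences were DEGs, at -1.25 (adjusted p = 0.000935), 1.39 (0.000387) and 1.58 (3.65e-05). Other genes, on either strand, share 64.5% of the exonic bases of Igf2. Among these, Gm49394, on the same strand, had 0 counts in 11 samples and 13 in control mouse 5.

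Igf1r, the signalling receptor, spans chromosome 7 bases 67601518 to 67883416 on the plus strand. It was at 121, 87.9 and 45.3 CPM in control mice 4, 5 and 6, at 79.4, 62.8 and 69.6 in senescent MEFs, at 121, 129.8 and 78.9 at 100 μg/mL and at 56.6, 112 and 79.9 at 300 μg/mL. All groups overlapped their neighbours. The log2 fold changes were -0.27 ± 0.33 for senescent against control (adjusted p = 0.693), 0.64 ± 0.33 (adjusted p = 0.314) with the lower dose and 0.23 ± 0.33 (adjusted p = 0.818) with the higher dose. With the offsets for single-transcript share and gene length these values were -0.11, -0.06 and 0.04.

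Igf2r, the clearance receptor, lies on chromosome 17, bases 12901293 to 12988614, on the minus strand, and is expressed from the maternal allele in most mouse tissues. In mice 4, 5 and 6 it was at 99.2, 119.6 and 31.4 CPM in control, 121, 56.2 and 54.0 in senescent MEFs, 254, 312 and 138 at 100 μg/mL and 57.8, 218 and 157 at 300 μg/mL. The 100 μg/mL samples lay above all senescent untreated ones, while at 300 μg/mL mouse 4 lay within their range. The log2 fold change was -0.11 ± 0.53 in senescent against control (adjusted p = 0.932), 1.61 ± 0.54 (adjusted p = 0.115) with the lower dose and 0.90 ± 0.53 (adjusted p = 0.466) with the higher dose. DESeq2 made the 100 μg/mL difference a DEG (1.70, adjusted p = 0.0262). The offsets for single-transcript share and gene length instead brought the values to 0.45 at both doses (adjusted p = 0.150 and 0.195). The single-transcript deviations were 0.63 and -1.49 in control mice 4 and 6, and -1.20 and 0.97 in libraries 5(1) and 5(2). In mice 4, 5 and 6 they were 0.27, -0.97 and 0.48 in senescent MEFs. With Fucoidan-FV they were 0.96, 1.09 and -0.22 at 100 μg/mL and -1.20, 0.53 and 0.16 at 300 μg/mL. Their part in the Igf2r differences was not tested.

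Among the binding proteins, Igfbp2 and Igfbp3 rose in senescent MEFs and no binding protein fell past the threshold there. Igfbp2, on chromosome 1 at bases 72863606 to 72891634 of the plus strand, was at 66.1, 119.9 and 62.8 CPM in control mice 4, 5 and 6 and at 304, 546 and 918 CPM in the senescent cultures. The lowest senescent culture was above the highest control culture. The difference was 7.10-fold (95% interval 3.87 to 13.01, log2 fold change 2.83 ± 0.41, adjusted p = 0.000639), and it stayed a DEG in 17 of 17 alternatives, between 2.36 and 3.18.

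With Fucoidan-FV, Igfbp2 stayed within the senescent range, at 363, 564 and 556 CPM in mice 4, 5 and 6 at 100 μg/mL and at 358, 566 and 706 CPM at 300 μg/mL. The log2 fold change against senescent MEFs was -0.25 (95% interval -1.07 to 0.56, adjusted p = 0.772) at 100 μg/mL and -0.12 (-0.93 to 0.70, adjusted p = 0.932) at 300 μg/mL. A fall of as much as 2-fold at 100 μg/mL therefore lies inside the interval.

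Igfbp3, the main carrier of IGFs in serum and a p53 target, lies on chromosome 11, bases 7156086 to 7164179, on the minus strand. It was at 1.83, 1.49 and 0.987 CPM in control mice 4, 5 and 6 and at 21.5, 20.6 and 18.4 CPM in the senescent cultures. The senescent cultures were close to one another and far above control. This was a 13.9-fold difference (95% interval 7.68 to 25.3, log2 fold change 3.80 ± 0.40, adjusted p = 8.18e-05), a DEG in 17 of 17 alternatives at 3.40 to 4.30. Library 5(1) of control mouse 5 held 8 counts of Igfbp3 and library 5(2) 68.

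Igfbp3 stood at 46.6, 31.7 and 72.7 CPM in mice 4, 5 and 6 with 100 μg/mL and at 41.6, 31.9 and 72.6 CPM with 300 μg/mL. All 6 treated samples were above all 3 untreated senescent ones. The log2 fold changes of 1.32 ± 0.35 (adjusted p = 0.0537) and 1.27 ± 0.35 (adjusted p = 0.0901) did not pass the threshold. Under the alternatives Igfbp3 was a DEG in 6 of 17 fits at 100 μg/mL, DESeq2 among them (adjusted p = 0.00376), and in 2 of 17 at 300 μg/mL.

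Igfbp5, a matrix-bound binding protein that is the most conserved of the family, lies on chromosome 1, bases 72897091 to 72914043, on the minus strand. Igfbp2 and Igfbp5 lie end to end there, on opposite strands, with 5456 bases between them. Igfbp5 was at 48.3, 110.0 and 75.7 CPM in control mice 4, 5 and 6 and at 76.6, 85.9 and 43.8 CPM in senescent MEFs, a log2 fold change of -0.18 ± 0.42 (adjusted p = 0.850). So of the neighbours, Igfbp2 rose with senescence while the Igfbp5 ranges overlapped.

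With Fucoidan-FV, Igfbp5 was at 162, 143 and 409.6 CPM in mice 4, 5 and 6 at 100 μg/mL and at 200.2, 144 and 284 CPM at 300 μg/mL. All treated samples were above all untreated senescent ones. Mouse 6 had the lowest of the untreated senescent cultures and the highest of the separate treated cultures at both doses. Igfbp5 was a DEG at the lower dose, 3.46-fold higher (95% interval 1.82 to 6.59, log2 fold change 1.79 ± 0.43, adjusted p = 0.0386). At 300 μg/mL the log2 fold change was 1.61 ± 0.43 with an adjusted p of 0.0801. The 100 μg/mL call was lost with the mouse as a block (1.66, adjusted p = 0.0742), with library 5(2) alone for control mouse 5 (adjusted p = 0.0681), with its libraries as separate samples (0.0577), with only these 2 groups in the fit (0.0789) and without any one of senescent mice 4, 5 and 6 or treated mice 4 and 6 (adjusted p 0.0520 to 0.121), the log2 fold change being 1.14 without treated mouse 6.

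Igfbp4, an inhibitory binding protein cleaved by the protease PAPP-A, lies on chromosome 11, bases 98932064 to 98945218, on the plus strand. It was at 504, 314 and 257 CPM in control mice 4, 5 and 6, 369, 274 and 515 in senescent MEFs, 382, 303 and 208 at 100 μg/mL and 331, 268 and 240.2 at 300 μg/mL. The ranges overlapped throughout. The log2 fold changes were 0.11 ± 0.30 (adjusted p = 0.877), -0.38 ± 0.30 (adjusted p = 0.532) and -0.46 ± 0.30 (adjusted p = 0.515) for the same 3 comparisons.

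Igfbp6, which prefers IGF2 over IGF1, lies on chromosome 15, bases 102052697 to 102057953, on the plus strand, and varied widely among mice. It was at 16.2, 8.36 and 1.55 CPM in control mice 4, 5 and 6 and at 9.01, 3.58 and 25.7 CPM in senescent MEFs. It was at 14.3, 14.5 and 6.06 CPM at 100 μg/mL and at 2.87, 9.28 and 10.6 CPM at 300 μg/mL. The highest senescent culture was mouse 6, whose control culture was the lowest of its group. Standard errors of 0.78 to 0.79 on the log2 scale left no difference past the threshold, with values of 0.55 (adjusted p = 0.736), -0.14 (adjusted p = 0.947) and -0.75 (adjusted p = 0.729). With the offsets these were 0.43, -0.49 and -0.21.

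Igfbp7, on chromosome 5 at bases 77493130 to 77555931 of the minus strand, was at 623, 698 and 799 CPM in control mice 4, 5 and 6 and at 827, 806 and 1337 CPM in senescent MEFs. It was at 578, 622 and 509.8 CPM at 100 μg/mL and at 739.9, 636 and 611 CPM at 300 μg/mL. In CPM all senescent samples lay above all samples of the other groups. In TPM the senescent range (1182 to 1652) was above control (911 to 1093). It overlapped those at 100 μg/mL (887 to 1347) and 300 μg/mL (1081 to 1275). The log2 fold change was 0.49 ± 0.21 for senescent against control (adjusted p = 0.160), -0.80 ± 0.21 (adjusted p = 0.0504) with the lower dose and -0.58 ± 0.21 (adjusted p = 0.187) with the higher dose. None passed the threshold, and without senescent mouse 6 the 100 μg/mL value was -0.36 (adjusted p = 0.329). Of its exonic bases 14.4% overlap exons of genes on the other strand (Polr2b and Gm34648), whose reads cannot be told apart unless the strand was used in counting, which is not given in the sources used here. Antisense genes also overlap Igf1 (Igf1os), Igf2 (Igf2os and Gm33148), Igf1r (Pgpep1l) and Igf2r (Airn).

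In the comparison of 100 μg/mL with senescent MEFs, 2 of the 10 genes were DEGs (Igf1 and Igfbp5, both higher), where 2.69% of all genes tested were DEGs, 1.1% higher and 1.6% lower. The count was 1 with the mouse as a block and 4 with DESeq2. At 300 μg/mL 1 of the 10 was a DEG (Igf1, higher), against 1.64% of all genes, 0.752% higher and 0.885% lower. DESeq2 made 4 of the 10 DEGs at this dose. CPM ranges did not overlap for 5 of the 10 at either dose, against 26.2% of all genes at 100 and 19.6% at 300 μg/mL. These were Igf1, Igfbp3, Igfbp5 and Igfbp7 at both doses, with Igf2r at 100 and Igf2 at 300 μg/mL. The median log2 fold change of the 10 was 0.98 at 100 μg/mL, where that of all genes was -0.02, and 0.57 at 300 μg/mL, where that of all genes was 0.00027. Both comparisons share the senescent samples.

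**Figure D2:**
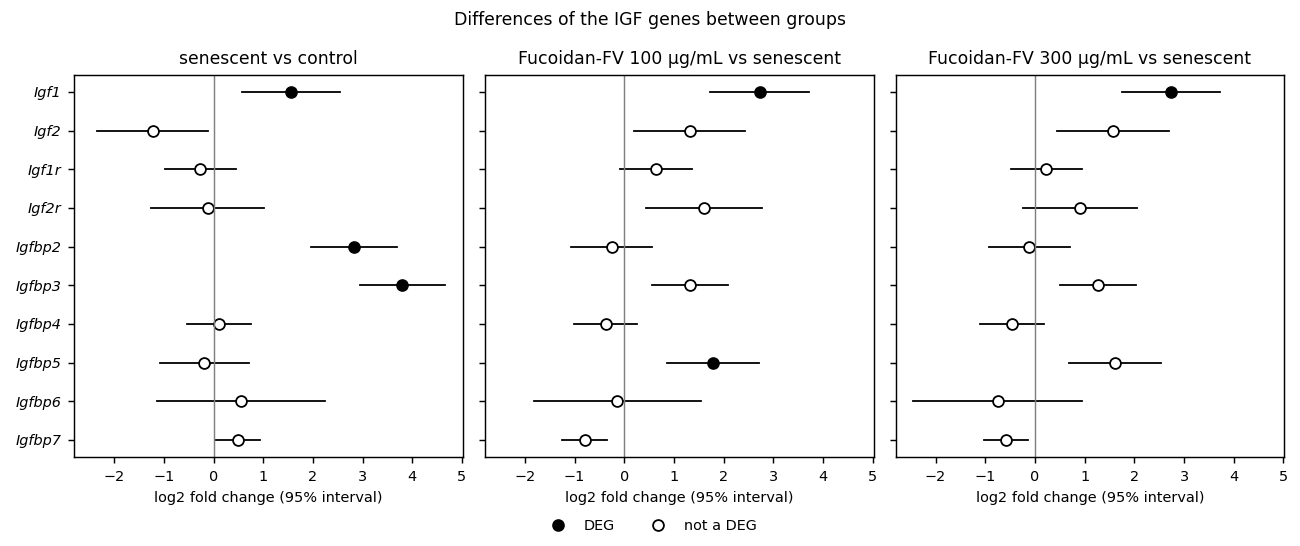
Log2 fold changes of the 10 IGF genes with 95% intervals in 3 comparisons, filled where the gene was a DEG (edgeR, adjusted p below 0.05 and absolute log2 fold change above 1). Igfbp3 (3.80) and Igfbp2 (2.83) lead in senescent against control MEFs, and Igf1 leads at 100 μg/mL (2.72) and 300 μg/mL (2.74) Fucoidan-FV against senescent MEFs.

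**Figure D3:**
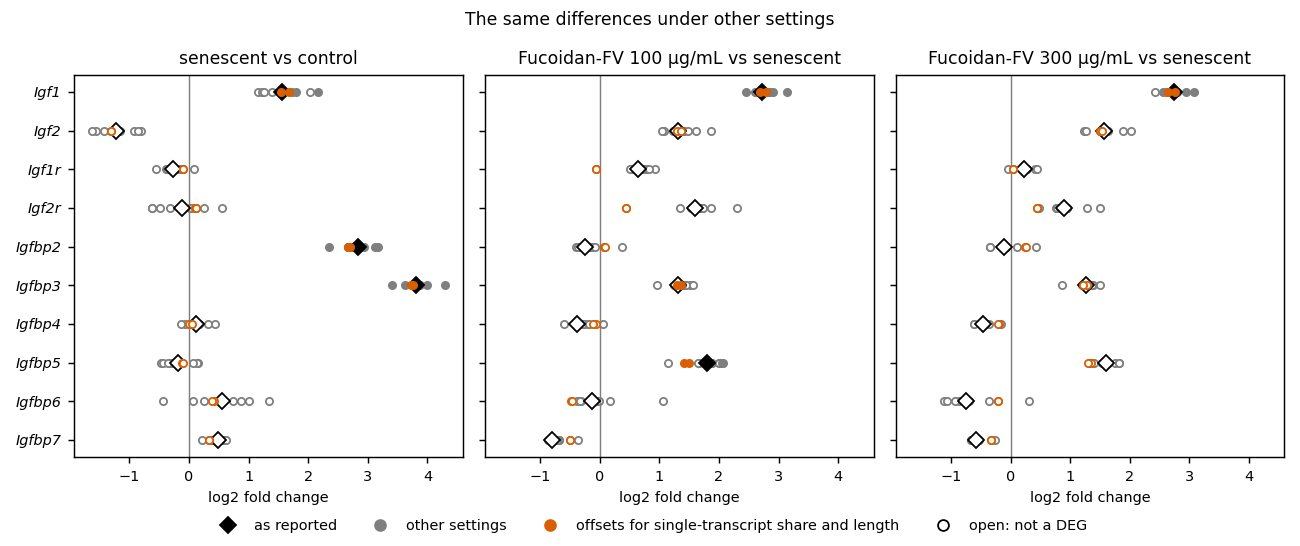
Log2 fold changes of the members under each processing alternative, with a black diamond for the value reported and open symbols where the gene was not a DEG. Grey points are other settings and orange points are the offsets for single-transcript share and gene length. Igfbp3 in senescent against control MEFs stays between 3.40 and 4.30, whereas Igf2r at 100 μg/mL moves from 1.61 to 0.45 with the offsets.

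The doses were then compared with each other. By edgeR 0 of the 10 were DEGs between the doses, 0 had an unadjusted p under 0.05 and 0 were DEGs by DESeq2, where 0.00665% of all genes were DEGs. Ranges overlapped for all 10, while 7.54% of all genes had ranges apart. Igf1 differed by 0.01 on the log2 scale (95% interval -0.91 to 0.93, adjusted p = 0.996), Igfbp3 by -0.05 (-0.79 to 0.70) and Igfbp5 by -0.19 (-1.09 to 0.72). The largest differences in size were -0.70 for Igf2r (-1.84 to 0.44) and -0.62 for Igfbp6 (-2.31 to 1.08), and both intervals include differences over 2-fold. The remaining values were 0.25 for Igf2, -0.41 for Igf1r, 0.14 for Igfbp2, -0.09 for Igfbp4 and 0.22 for Igfbp7, all with adjusted p values of at least 0.970.

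Against non-senescent control MEFs, 4 of the 10 were DEGs with either dose, all higher, where 19.7% of all genes were DEGs at 100 and 18% at 300 μg/mL (10.3% and 9.87% higher, 9.37% and 8.11% lower). They were Igf1, Igfbp2, Igfbp3 and Igfbp5 at both doses, and 0 were lower (0 at an unadjusted p under 0.05, and 0 by DESeq2). Igfbp3 was 34.8-fold higher at 100 μg/mL (95% interval 18.5 to 65.4, log2 fold change 5.12, adjusted p = 6.57e-06) and 33.7-fold higher at 300 μg/mL (5.07). Igf1 was 19.5-fold (log2 fold change 4.28) and 19.6-fold (4.30) higher, Igfbp2 5.96-fold (2.57) and 6.55-fold (2.71), and Igfbp5 3.05-fold (1.61, adjusted p = 0.0140) and 2.68-fold (1.42, adjusted p = 0.0266). The Igfbp5 call was lost at 100 μg/mL without treated mouse 6 (0.96, adjusted p = 0.0816) and with library 5(2) alone for control mouse 5 (1.31, adjusted p = 0.0681), and at 300 μg/mL without control mouse 4, treated mouse 4 or treated mouse 6 or with library 5(2) alone (1.13 to 1.45, adjusted p 0.0536 to 0.113). Igf2r had a log2 fold change of 1.49 (adjusted p = 0.0559) with the lower dose, which became a call with the mouse as a block (1.55, adjusted p = 0.0448) and was 0.54 with the offsets, and 0.79 (adjusted p = 0.313) with the higher dose. The other values at 100 and 300 μg/mL were 0.09 and 0.34 for Igf2, 0.37 and -0.04 for Igf1r, -0.27 and -0.36 for Igfbp4, 0.42 and -0.20 for Igfbp6 and -0.31 and -0.09 for Igfbp7. Ranges did not overlap for 6 of the 10 genes at 100 and 4 at 300 μg/mL, against 48.3% and 43.3% of all genes.

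The make-up of the binding protein transcripts was described as shares of their summed TPM, with no test. The 6 binding proteins together summed to 1668 to 1758 TPM in control, 2620 to 3462 in senescent MEFs, 2552 to 3159 at 100 μg/mL and 2696 to 3055 at 300 μg/mL. Igfbp2 made up 5.26% to 10.3% of that sum in control and 20.0% to 33.8% in senescent MEFs, then 27.6% to 39.6% at 100 and 22.8% to 42.6% at 300 μg/mL. The Igfbp7 share was 51.8% to 63.4% in control, 44.9% to 52.5% in senescent MEFs, 34.8% to 44.0% at 100 and 35.7% to 44.8% at 300 μg/mL. Igfbp4 made up 28.3% to 40.4% in control and 16.9% to 25.4% in senescent MEFs. Igfbp5 made up 0.714% to 1.75% in control, 0.289% to 0.880% in senescent MEFs, 1.65% to 5.04% at 100 and 1.67% to 2.998% at 300 μg/mL, with treated and control ranges that overlapped. The control and senescent ranges of Igfbp2 and Igfbp4 were thus apart while those of Igfbp7 overlapped.

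**Figure D4:**
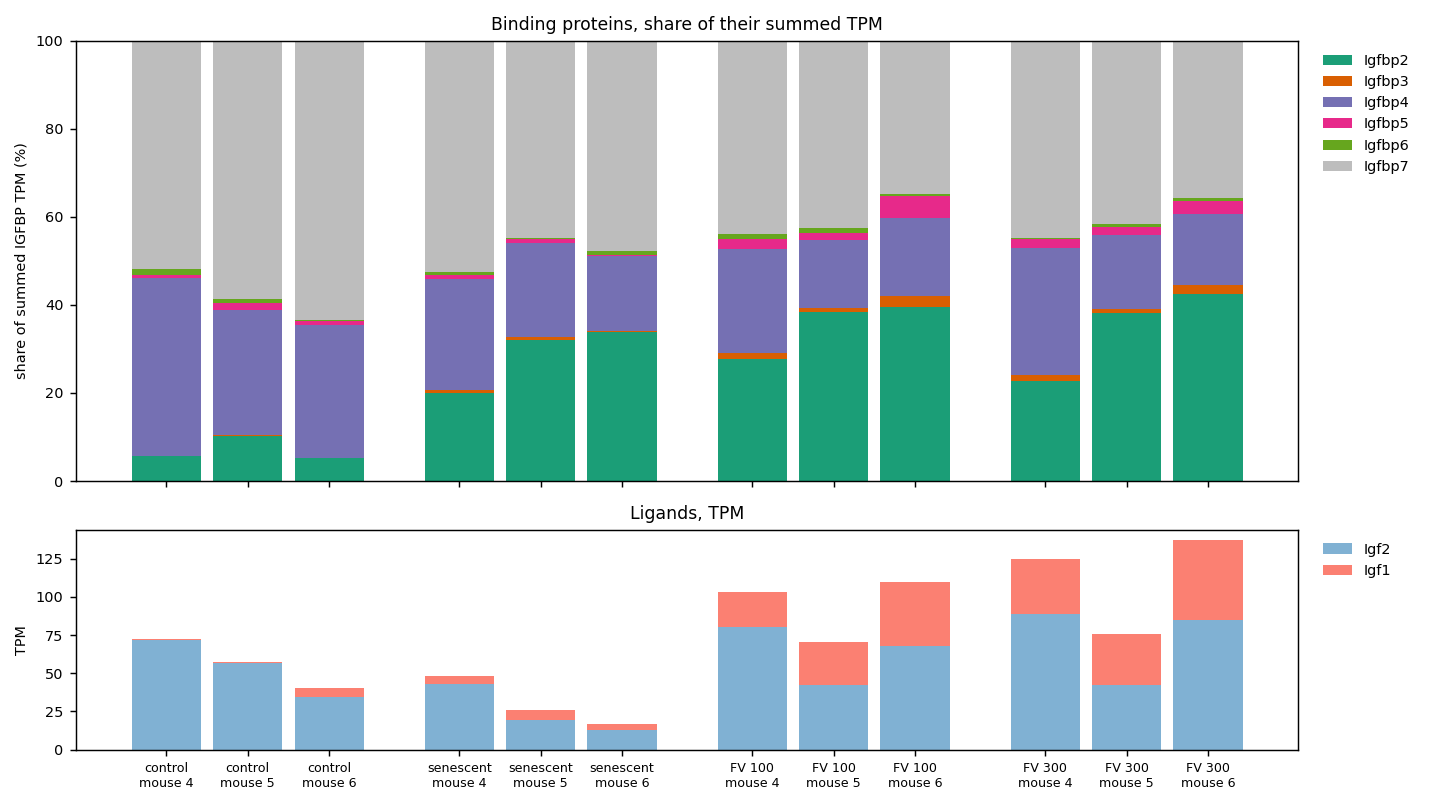
Upper panel, share of each binding protein in the summed TPM of the 6 (%), one bar per sample, and lower panel, TPM of the ligands Igf1 and Igf2 stacked. Igfbp2 takes 5.26% to 10.3% of the bar in control and at least 20.0% in the other samples, and the ligand bars are 16.5 to 48.0 TPM in senescent MEFs and at least 70.7 TPM with Fucoidan-FV.

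The ligands together summed to 40.6 to 72.5 TPM in control, 16.5 to 48.0 in senescent MEFs, 70.7 to 109.8 at 100 μg/mL and 75.7 to 137 at 300 μg/mL. Igf2 was the larger part of the sum in every sample. Igf1 made up 1.39% to 15.5% of it in control, 11.03% to 27.0% in senescent MEFs, 22.3% to 40.0% at 100 and 28.8% to 44.2% at 300 μg/mL. In TPM the binding proteins exceeded the ligands in every sample.

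Genes whose levels followed those of the changed members most closely over the 12 samples were named as a description, among 12645 genes with a mean of at least 1 CPM. They share the 4 groups and the same libraries. For Igf1 they were Abat (Pearson r = 0.984), Klhl13 (0.982) and Fgf18 (0.982). For Igfbp2 they were Nudt18 (0.986), Zfp385a (0.972) and Aplp1 (0.968), and for Igfbp3 Man2b2 (0.991), Tap1 (0.989) and Pcx (0.987). For Igfbp5 they were Il6st (0.962), Dennd2b (0.954) and Adamts9 (0.954). The r values are over 12 samples and carry no test.

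The wider pathway was read from 71 other genes in 5 lists, of which 63 passed the filter. In senescent against control MEFs 4 of the 63 were DEGs in the higher direction and 3 in the lower one. At 100 μg/mL Fucoidan-FV against senescent MEFs 6 were higher and 3 lower, and at 300 μg/mL 5 were higher and 1 lower. The background shares are those given above, 8.42%, 2.69% and 1.64%. The median log2 fold change of the 63 was -0.04, 0.28 and 0.18 in these comparisons, against 0.07, -0.02 and 0.00027 over all genes. Between the doses 0 of the 63 were DEGs by edgeR (0 at an unadjusted p under 0.05, and 0 by DESeq2).

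Among 10 genes that are imprinted or encode IGF2 mRNA-binding proteins (9 tested), 3 rose and 1 fell at 100 μg/mL. H19, a long non-coding RNA 70545 bases from Igf2 on the same strand and expressed from the other parental allele, was at 179, 116 and 122 CPM in senescent mice 4, 5 and 6, at 1087, 548 and 2747 CPM at 100 μg/mL and at 1541, 623 and 2353 CPM at 300 μg/mL. Every treated sample was above every untreated one, with mouse 5 lowest at both doses, as it was for Igf2. H19 rose by a log2 fold change of 3.39 ± 0.56 (adjusted p = 0.00719) at 100 and 3.44 (adjusted p = 0.00966) at 300 μg/mL. It was at 223, 221 and 161 CPM in control mice.

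Mest, a paternally expressed gene of the hydrolase fold, was at 5.24, 5.47 and 1.73 CPM in senescent mice 4, 5 and 6, at 46.4, 31.4 and 88.5 CPM at 100 μg/mL and at 82.4, 36.8 and 74.7 CPM at 300 μg/mL. It rose by log2 fold changes of 3.74 ± 0.50 (adjusted p = 0.00274) and 3.96 (adjusted p = 0.00244). Cdkn1c, which encodes the cell cycle inhibitor p57, was at 30.5, 38.3 and 33.7 CPM in senescent MEFs and at 76.7 to 121 CPM in the 6 treated samples. It rose by 1.34 ± 0.20 (adjusted p = 0.00448) and 1.64 (adjusted p = 0.00175). Dlk1, a paternally expressed membrane protein related to Notch ligands, fell in senescent MEFs (-1.78 ± 0.35, adjusted p = 0.00504), from 64.6, 52.4 and 46.9 CPM in control mice 4, 5 and 6 to 12.1, 18.2 and 17.5 CPM. It fell further at 100 μg/mL (-1.63 ± 0.35, adjusted p = 0.0229), to 6.86, 5.41 and 3.18 CPM. With the higher dose it was at 7.99, 6.54 and 3.57 CPM, a log2 fold change of -1.40 ± 0.35 that did not pass the threshold (adjusted p = 0.0610). Dlk1 was the only DEG of this list in senescent against control MEFs, where Igf2 itself did not pass the threshold.

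Among 6 CCN genes (5 tested), which encode matrix proteins with a domain like that of IGF-binding proteins, 1 rose in each of the 3 comparisons. Ccn5 rose in senescent MEFs (2.16 ± 0.55, adjusted p = 0.0227), from 35.4, 28.6 and 4.42 CPM in mice 4, 5 and 6 to 137, 69.4 and 101 CPM. Ccn3 was at 8.40, 3.02 and 8.19 CPM in senescent MEFs, at 88.2, 81.8 and 82.2 CPM at 100 μg/mL and at 15.97, 52.8 and 104 CPM at 300 μg/mL, so the lower dose was even among mice and the higher one was not. Ccn3 rose with both doses, the lower (3.68 ± 0.70, adjusted p = 0.013) and the higher (3.14 ± 0.68, adjusted p = 0.0335), the latter call being lost with the mouse as a block (3.14, adjusted p = 0.0783).

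Among 15 proteases and other partners of the binding proteins (11 tested), 1 rose and 1 fell in senescent MEFs. Ctsd, a lysosomal protease carried by IGF2R that can cut binding proteins, was at 817, 995 and 1242 CPM in control mice 4, 5 and 6 and at 2869, 3172 and 3969 CPM in senescent MEFs, a rise of 1.71 ± 0.24 (adjusted p = 0.000571). Adam12, a metalloprotease that cleaves IGFBP3 and IGFBP5, fell from 175, 168 and 176 CPM to 55.6, 60.9 and 25.6 CPM (-1.87 ± 0.32, adjusted p = 0.00221). With Fucoidan-FV 0 of the 11 were DEGs by edgeR at either dose. The lower dose had 3 higher and 2 lower at an unadjusted p under 0.05 and DESeq2 made 3 calls, and the higher dose had 2 lower while DESeq2 made 0 calls.

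Among 35 genes of IGF and insulin receptor signalling (33 tested), 2 rose and 1 fell in senescent MEFs. These were Grb14, an adaptor that restrains the insulin receptor (1.45 ± 0.40, adjusted p = 0.0320), Irs1, the adaptor next to IGF1R (1.07 ± 0.25, adjusted p = 0.0140), and Socs2, a suppressor of growth hormone signalling (-1.03 ± 0.24, adjusted p = 0.0150, or -0.998 and thus no DEG with the mouse as a block). With the lower dose Irs1 rose (1.25 ± 0.25, adjusted p = 0.0159) with Pik3r3, a regulatory subunit of PI3 kinase (1.23 ± 0.27, adjusted p = 0.0265), and Socs2 (-1.23 ± 0.24, adjusted p = 0.0159) and Enpp1, an ectoenzyme that binds the insulin receptor (-1.59 ± 0.31, adjusted p = 0.0153), fell. At 300 μg/mL Irs1 rose (1.17 ± 0.25, adjusted p = 0.0295) and Enpp1 fell (-1.54 ± 0.31, adjusted p = 0.0252).

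Irs1 was at 30.9, 27.6 and 16.6 CPM in senescent mice 4, 5 and 6, at 51.7, 54.8 and 72.6 CPM at 100 μg/mL and at 58.0, 50.6 and 60.7 CPM at 300 μg/mL, without overlap. Its value depended on the offsets for single-transcript share and gene length. Under them it was 1.03 (adjusted p = 0.324) in senescent MEFs, 0.07 (adjusted p = 0.972) at 100 μg/mL and 1.012 (adjusted p = 0.480) at 300 μg/mL. With the mouse as a block added to the offsets, the 100 μg/mL value was -0.23. With the mouse as a block alone, the Irs1 call at 300 μg/mL (1.18, adjusted p = 0.0555) and the Pik3r3 call at 100 μg/mL (1.21, adjusted p = 0.0508) were lost.

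In the growth hormone axis list (6 genes, all tested), Socs2, counted in both lists, was the only DEG in senescent MEFs and at 100 μg/mL. At 300 μg/mL 0 were DEGs by edgeR, with 0 higher and 1 lower at an unadjusted p under 0.05 and 0 by DESeq2. Socs2 was at 79.2, 77.7 and 127 CPM in control mice 4, 5 and 6, at 38.5, 49.5 and 50.8 CPM in senescent MEFs, at 20.9, 16.5 and 21.8 CPM at 100 μg/mL and at 26.0, 18.96 and 26.4 CPM at 300 μg/mL, so that the control, senescent and treated ranges did not overlap.

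Among these list genes, the calls of H19, Mest and Cdkn1c at both doses and of Ctsd, Adam12 and Dlk1 in senescent MEFs held without any one replicate. In senescent against control MEFs, the Ccn5 call was lost without control mouse 5 or senescent mouse 4 (adjusted p = 0.0651 and 0.0943), the Grb14 call without control mouse 5 or senescent mouse 4 or 6 (0.0676 to 0.112), and those of Irs1 (0.87 without senescent mouse 4) and Socs2 (-0.75 without control mouse 6, -0.94 without senescent mouse 4) through the limit on fold change. At the lower dose the Dlk1 call was lost without any one of the 6 cultures compared (adjusted p 0.0512 to 0.117), that of Ccn3 without senescent mouse 5 (0.0548), that of Enpp1 without treated mouse 4 or 5 (0.0785 and 0.081), that of Irs1 without treated mouse 5 or 6 (0.0512 and 0.0611), that of Pik3r3 without senescent mouse 5 or any treated culture (0.0562 to 0.0868) and that of Socs2 without senescent mouse 5 or 6 or treated mouse 4 or 5 (0.055 to 0.0898). At the higher dose Ccn3 lost its call without any one culture other than treated mouse 4 (0.0715 to 0.188), Enpp1 without senescent mouse 4 or any treated culture (0.0527 to 0.103), and Irs1 without any treated culture (0.0694 to 0.150) or senescent mouse 6 (0.99, under the limit on fold change).

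**Figure D5:**
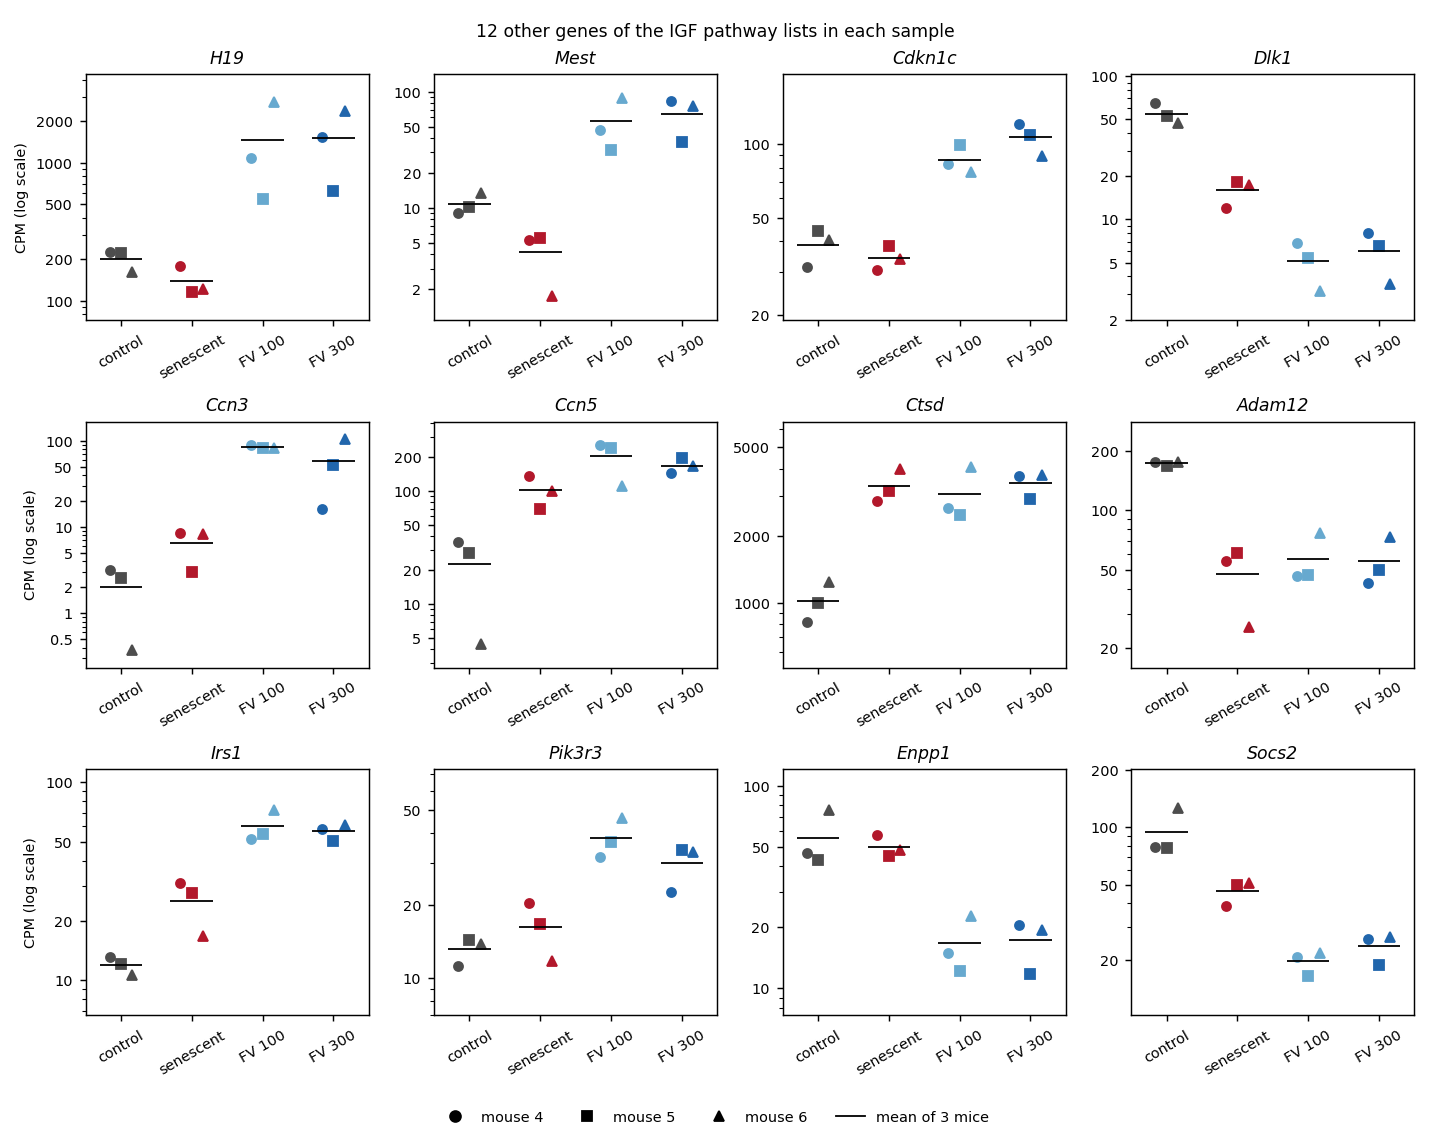
CPM of 12 other genes of the IGF pathway lists in each sample on log axes that differ between panels, with points shaped by mouse and a line at the mean of 3 mice per group. H19 lies at 116 to 179 CPM in senescent MEFs and at 548 CPM or more with Fucoidan-FV, and Adam12 lies at 168 to 176 CPM in control and at or under 77.0 CPM in all other samples.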

How the data were processed

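Stranded total RNA libraries of 12 MEF cultures (13 libraries) were sequenced as paired ends. Per the labels and the study's methods, the authors trimmed reads with Trimmomatic, aligned them with STAR 2.7.11b and counted them with RSEM 1.3.1 on GRCm39, and deposited the expected count and the TPM of each gene per library. Whether counting used the strand is not given in the sources used here.

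Expected counts were rounded, and those of the 2 libraries of control mouse 5 were added, while for TPM their mean was used. Depth ran from 22782536 to 31278750 counts per library, and intervals rest on 3 mice per group. Genes were filtered with filterByExpr (minimum count 10, minimum total 15), scaled by TMM and tested with edgeR 4.0.16 (R 4.3.3) by the quasi-likelihood test in one fit of 4 groups without a block, the study's methods stating none, with Benjamini-Hochberg adjustment over 15034 genes. DEGs had an adjusted p below 0.05 and an absolute log2 fold change above 1. The study's own tool was DESeq2, run here in version 1.42.0 as an alternative. The fits were tested on simulated data. Gene positions are those of the GENCODE annotation of GRCm39. The other alternatives were RLE scaling, other filters, only the 2 groups compared, the mouse as a block, each library of control mouse 5, leaving out each replicate, and offsets by single-transcript share and length, with and without the block.

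The labels give mice 4, 5 and 6 in every group, which pairs the cultures. Over 18 pairs of cultures of one mouse, the correlation of deviations from the group means had a median of -0.0063 (-0.204 to 0.425), with 8 over 0.1. Every member was described in every sample and comparison, and list genes were named where they were DEGs. One gene of the neural and glial marker list is not reported here by name. The members and lists were chosen with earlier results of these data known.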

Additional observations from a re-analysis of the deposited data

How the results depend on the processing

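Of 1026 values of the IGF genes recomputed under an alternative, 894 kept their direction and their side of the threshold, 28 lost a call, 24 gained one and 80 changed sign, and 0 of those that changed sign was a call as reported. Leaving out one replicate gave 2 to 3 DEGs among the IGF genes in senescent against control MEFs, where 3 were reported. With 3 mice per group, low counts of Igf1 and Igfbp3 in control and large spread of Igfbp6 limit what can be detected. The cause of the changes below was not tested.

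At 100 μg/mL against senescent MEFs, the 2 DEGs among the IGF genes became 4 with DESeq2, 5 with no filter beyond 1 count, 1 with only the 2 groups compared, 1 with the replicate block, 0 with libraries 5(1) and 5(2) as separate samples, 1 with library 5(1) alone, 1 with library 5(2) alone and 1 to 2 with one replicate left out (2 only without the treated culture of mouse 5). At 300 μg/mL the 1 DEG became 4 with DESeq2, 4 with no filter, 0 with separate libraries, 0 with library 5(1) alone and 0 to 1 with one replicate left out (0 without the treated culture of mouse 6). Among the other pathway genes, the 7 DEGs of senescent against control MEFs became 3 with only the 2 groups compared. The 9 at 100 μg/mL became 14 with DESeq2, 17 with no filter, 5 with only the 2 groups and 4 to 9 with one replicate left out (4 without the treated culture of mouse 5). The 6 at 300 μg/mL became 10 with no filter, 3 with only the 2 groups and 3 to 5 with one replicate left out.

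The log2 fold changes that changed sign, none a DEG as reported except Irs1, were these. With offsets for single-transcript share and gene length (with the replicate block added, in parentheses), senescent against control gave 0.093 (0.12) for Igf2r and -0.0068 for Igfbp4. The lower dose against senescent MEFs gave -0.058 (-0.056) for Igf1r, 0.063 (0.089) for Igfbp2 and, with the block only, -0.23 for Irs1. The higher dose gave 0.24 (0.25) for Igfbp2. Between doses the values were -0.018 (-0.049) for Igf1, 0.10 (0.098) for Igf1r and 0.28 (0.27) for Igfbp6. Against control, the lower dose gave -0.022 for Igf2, -0.17 (-0.16) for Igf1r and -0.062 (-0.087) for Igfbp6, and the higher dose 0.21 (0.18) for Igfbp6 and 0.0062 (0.0084) for Igfbp7. The replicate block alone gave 0.018 for Igf2r in senescent against control MEFs and 0.031 for Igf1r at the higher dose against control. Apart from the calls of Igfbp5, Igf2r, Ccn3, Irs1, Pik3r3 and Socs2 given beside their results, the pairing by mouse changed no call of a gene named in the text in the comparisons it was run on. Library 5(1) alone gave 0.55 for Igf2r and 0.15 for Igfbp5 in senescent against control MEFs, -0.11 for Igf2 at the lower dose against control, and 0.091 for Igf1r and 0.12 for Igfbp6 at the higher dose against control. Requiring 10 counts in every sample gave 0.0016 for Igf1r at the higher dose against control. Between doses Igf1 was -0.050 with RLE factors, -0.048 with DESeq2, -0.035 with no filter, -0.047 with 10 counts in every sample and -0.035 with only the 2 groups.

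With one replicate left out, senescent against control ran from -0.55 to 0.082 for Igf1r, -0.61 to 0.26 for Igf2r, -0.14 to 0.43 for Igfbp4, -0.44 to 0.14 for Igfbp5 and -0.43 to 1.35 for Igfbp6. The lower dose against senescent MEFs ran from -0.40 to 0.37 for Igfbp2, -0.60 to 0.057 for Igfbp4 and -0.38 to 1.05 for Igfbp6, and the higher dose from -0.047 to 0.44 for Igf1r, -0.35 to 0.42 for Igfbp2 and -1.12 to 0.32 for Igfbp6. Between doses the ranges were -0.30 to 0.28 for Igf1, -0.054 to 0.57 for Igf2, -0.094 to 0.36 for Igfbp2, -0.45 to 0.32 for Igfbp3, -0.29 to 0.13 for Igfbp4 and -0.46 to 0.46 for Igfbp5. Against control, the lower dose ran from -0.18 to 0.63 for Igf2 and -0.49 to 0.23 for Igfbp4, and the higher dose from -0.31 to 0.38 for Igf1r, -0.50 to 0.016 for Igfbp4, -0.61 to 0.67 for Igfbp6 and -0.18 to 0.070 for Igfbp7.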
